A study of Mus musculus with 2 samples.

Results

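The genes described here were measured in nuclei of the mouse thick ascending limb (TAL). They are named for the enzymes that make and break down cyclic AMP and cyclic GMP, and for the kinases that these nucleotides switch on. They were chosen by symbol (Adcy with a number, Gucy, Pde with a number and a letter, Prkar, Prkac and Prkg) and by having at least 20 counts over both libraries. Of 51 matching genes 47 reached that minimum, out of 32227 genes listed and 17717 with at least 20 counts. They comprised 10 adenylyl cyclases, 6 guanylyl cyclase genes and 23 phosphodiesterase (PDE) genes. The PDE genes were counted by symbol, whether or not the product itself is catalytic. The others were 4 regulatory and 2 catalytic subunits of protein kinase A (PKA), and 2 cyclic GMP-dependent kinases. Just inside the minimum were Gucy2c with 21 counts, Gucy1b2 with 22 and Adcy4 with 23, and just outside were Pde6c and Gucy2g with 15 each. Gucy2d had 8 counts and Gucy2e had 2.

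Nuclei came from NKCC2-INTACT mice, in which a tamoxifen-inducible Cre under the control of Slc12a1 (NKCC2) drives a GFP-tagged nuclear membrane protein (Sun1) from the CAG promoter, so that GFP-positive TAL nuclei could be sorted. The animals were males of strain B6 with the genotype labelled WT and an age labelled 12 with no unit, and they received 1 mg tamoxifen daily for 5 days with a 10-day induction, with no untreated group. The cortex library was made from a superficial strip of about 20% of the kidney's depth and the medulla library from all remaining tissue, so the deeper cortex belongs to the medulla library. With no measure of depth for its nuclei, class and depth cannot be told apart in any ratio between classes of the medulla library. Each region is 1 library, and the number of animals behind it is not given in the sources used here, so region and library cannot be told apart and no statistical test was possible. Intervals in the text are 95% intervals that cover counting error only.

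The cortex library held 5442 barcodes with 16457300 counts, and the medulla library held 8121 barcodes with 20947211 counts, with 0 barcodes shared. After doublet removal 5083 and 7732 barcodes were kept, of which 4861 and 7578 had at least 10 counts of Slc12a1 and were placed in 4 TAL classes by marker counts. A barcode was put in the macula densa (MD) class with at least 3 counts of Nos1 and Pappa2, else in the β class with at least 2 of Tmem52b, else in the γ class with at least 2 of Tmem207 and Gpc5, else in the α class. In the cortex these held 594, 1326, 232 and 2709 barcodes, and in the medulla 73, 542, 3330 and 3633, in the same order. Median counts per barcode ran from 1836.5 in cortical MD to 2769 in medullary β.

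Among markers that the rule did not use, those given here matched the labels of β and cortical MD. The α class is what the rule left over, and cortical α still held Cldn16, a β marker. Of the α markers, Ptger3 is given further below and was highest in α in each library. Cldn16 was at 198 counts per 1000000 counts of a class (CPM) in cortical β and 258 CPM in medullary β, against 100.2 and 60.4 CPM in α, and Ptgs2 and Mcub, both markers of the macula densa, were at 98.9 and 51.7 CPM in cortical MD and at most 4.38 CPM in any other class. Medullary γ held Cldn10 at 212 CPM with Kcnj10 at 111 CPM, the genes of its label, with no medullary α level of Kcnj10 set beside it. Cortical γ held Cldn16 at 156 CPM beside Cldn10 at 150 CPM, so there the label was not borne out and the class is named by its rule alone. Cldn10 was also present in cortical β, at 103 CPM. Proximal tubule markers summed to between 1613 and 3171 CPM in the cortical classes and between 343 and 591 CPM in the medullary ones, and Slc12a3, the defining transporter of the distal convoluted tubule, was at 283 CPM in cortical β and 161 CPM in medullary β against 59.2 and 2.57 CPM in α. Their part in the results was not tested.

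Cyclic AMP is made from ATP by adenylyl cyclases, most of them at the plasma membrane and downstream of receptors coupled to stimulatory or inhibitory G proteins. Cyclic GMP is made by soluble guanylyl cyclases that bind nitric oxide or by membrane receptors. PDEs hydrolyse these nucleotides, with families that differ in substrate and control: PDE4, PDE7 and PDE8 act on cyclic AMP, PDE5, PDE6 and PDE9 on cyclic GMP, and PDE1, PDE2, PDE3, PDE10 and PDE11 on both, PDE1 being activated by calcium and calmodulin. In the TAL, cyclic AMP raised by vasopressin, parathyroid hormone, glucagon, calcitonin and adrenergic agonists is known for stimulating NaCl, calcium and magnesium reabsorption, and the macula densa, the plaque of TAL cells facing the glomerulus, is known for making nitric oxide with Nos1.

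Promoters are shown for 4 members that stood higher in the macula densa class than in the other classes (Pde10a, Gucy1a2, Pde1b and Pde1c), since genes that move together can be compared in their upstream sequence, with 1 site of the core of the cyclic AMP response element near Pde1a, which stood lower there, and the 1 site of the full element, near Prkar1a. RefSeq promoters (of the build GRCm38.p6) were found for 37 of the 47 members, 76 promoters in all, and the 250 bases before each start were searched on both strands for the full element TGACGTCA and for its core TGACG, which every full element also contains. The sequences below were matched to GRCm39, the build of the counts, each at a single position, and are promoters in which no base lies in an annotated UTR, or short sites. Capitals mark the core or the full element on either strand.
Pde10a promoter, chr17:9068567-9068816, + strand: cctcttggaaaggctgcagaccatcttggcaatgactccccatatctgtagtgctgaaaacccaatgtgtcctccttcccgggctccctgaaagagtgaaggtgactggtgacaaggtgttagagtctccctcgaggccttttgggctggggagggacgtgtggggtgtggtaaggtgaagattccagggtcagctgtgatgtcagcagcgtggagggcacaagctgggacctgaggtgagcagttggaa
Gucy1a2 promoter, chr9:3532099-3532348, + strand: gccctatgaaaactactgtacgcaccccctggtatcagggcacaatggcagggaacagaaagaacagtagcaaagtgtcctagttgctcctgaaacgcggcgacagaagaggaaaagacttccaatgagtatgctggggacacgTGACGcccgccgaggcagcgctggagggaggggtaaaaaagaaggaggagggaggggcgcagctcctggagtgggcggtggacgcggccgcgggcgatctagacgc
Pde1b promoter, chr15:103415303-103415552, + strand: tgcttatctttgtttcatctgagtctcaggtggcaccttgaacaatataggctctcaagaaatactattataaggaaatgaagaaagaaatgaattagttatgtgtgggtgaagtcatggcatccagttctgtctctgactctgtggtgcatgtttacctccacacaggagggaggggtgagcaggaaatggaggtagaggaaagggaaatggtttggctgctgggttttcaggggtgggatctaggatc
Pde1c promoter, chr6:56339796-56340045, − strand: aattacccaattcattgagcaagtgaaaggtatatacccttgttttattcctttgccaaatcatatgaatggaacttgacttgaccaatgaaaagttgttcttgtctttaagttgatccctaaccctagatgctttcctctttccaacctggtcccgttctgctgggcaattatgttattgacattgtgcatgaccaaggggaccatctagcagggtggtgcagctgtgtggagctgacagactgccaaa
Site of the core upstream of a Pde1a start, chr2:79869398-79869422, − strand: aacttcagccCGTCAttcctcagta
Site of the full element upstream of a Prkar1a start, chr11:109541716-109541743, + strand: cgaggcgcatTGACGTCAgcagccgaac
The full element stood in 1 of the 76 member promoters (1.316%), against 1.546% of the 32851 promoters in the table, and the core in 19.74% against 17.77%. Of the 4 promoters shown whole, that of Gucy1a2 held the core. A promoter of Prkar1b, also higher in the macula densa class, held the core at chr5:139135791-139135815. It is not shown whole because 124 of its bases lie in annotated UTR. In the Prkar1a promoter the full element began at position -49, counted from the start. Pde1a and Prkar1a have several annotated starts. The 250 bases before the start used lie in annotated UTR over 227 bases at the Pde1a site and all 250 at the Prkar1a site. Pde10a, Pde1b and Pde1c also have more than 1 annotated start, and the stretches shown for them lie inside the annotated gene. They were shown because no base of them lies in an annotated UTR, and which start is used in these nuclei was not measured.

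The cyclases, kinases and PDEs that reached no 2-fold difference in the 8 comparisons below come first. Adcy6, a calcium-inhibited adenylyl cyclase and the member of its family with the most counts, was at 240, 217, 208 and 232 CPM in cortical α, β, γ and MD and at 276, 274, 299 and 279 CPM in the medullary classes in the same order. These 8 values lay within 1.5-fold of each other. Adcy6 made up between 56.2% and 70.7% of the adenylyl cyclase counts of every class. Adcy9 ran from 47.3 to 74.8 CPM and the bicarbonate-sensitive Adcy10 from 18.7 to 34.0 CPM. Prkacb, the PKA catalytic subunit with the most counts, was at 75.2, 74.0, 81.6 and 69.2 CPM in the cortical classes and at 80.9, 77.1, 86.8 and 47.6 CPM in the medullary ones, the last from 7 counts. Prkaca, Prkar1a and Prkar2a stayed between 28.6 and 74.8 CPM. Of the 47 members 16 passed the minimum of 20 counts in all 8 comparisons below and in none reached a 2-fold difference, among them all 4 PDE4 genes, both PDE7 genes and Pde8a. A further 2 members passed the minimum in some comparisons and reached 2-fold in none, 21 reached it at least once, and 8 had too few counts in every comparison (Adcy4, Adcy7, Gucy1b1, Gucy1b2, Gucy2c, Gucy2f, Pde6b and Pde6g). No such tally over the comparisons was made for all genes, so these counts cannot be set against theirs.

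Pde4d, which had the most counts of any member (73240 over both filtered matrices), was at 2114, 2614, 2748 and 1627 CPM in cortical α, β, γ and MD, and at 1546, 1930, 1465 and 1224 CPM in the medulla. It was lowest in MD within each library. Pde4c was at 302, 279, 298 and 183 CPM in the cortex and 326, 337, 364 and 190 CPM in the medulla, again lowest in MD. Pde4b ran the other way, with 186 and 224 CPM in cortical and medullary MD against 164 and 127 CPM in α. Outside the 8 comparisons Pde4b did pass 2-fold. In cortical γ it was at 0.457 (0.343 to 0.599) of α, and in medullary MD at 2.44 times (1.62 to 3.57) β. Pde7b was at 798, 983, 813 and 681 CPM in the cortex and 592, 930, 491 and 816 CPM in the medulla, and Pde8a was between 278 and 407 CPM in all 8 groups. Pde6d, the PDE6 gene with the most counts, was at 36.7, 39.1, 47.6 and 44.1 CPM in the cortex and 46.9, 37.9, 59.2 and 68.0 CPM in the medulla. Pde5a, which is specific for cyclic GMP, was at 4.38, 4.72, 9.52 and 6.85 CPM in the cortex and at 2.34, 2.49 and 3.01 CPM in medullary α, β and γ, with 0 counts in medullary MD. Its cortical γ level, from 7 counts, was 2.17 times (0.811 to 4.99) that of α, also outside the 8 comparisons. CPM are not divided by gene length, so these values compare classes for a gene and not genes with each other.

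**Figure D1:**
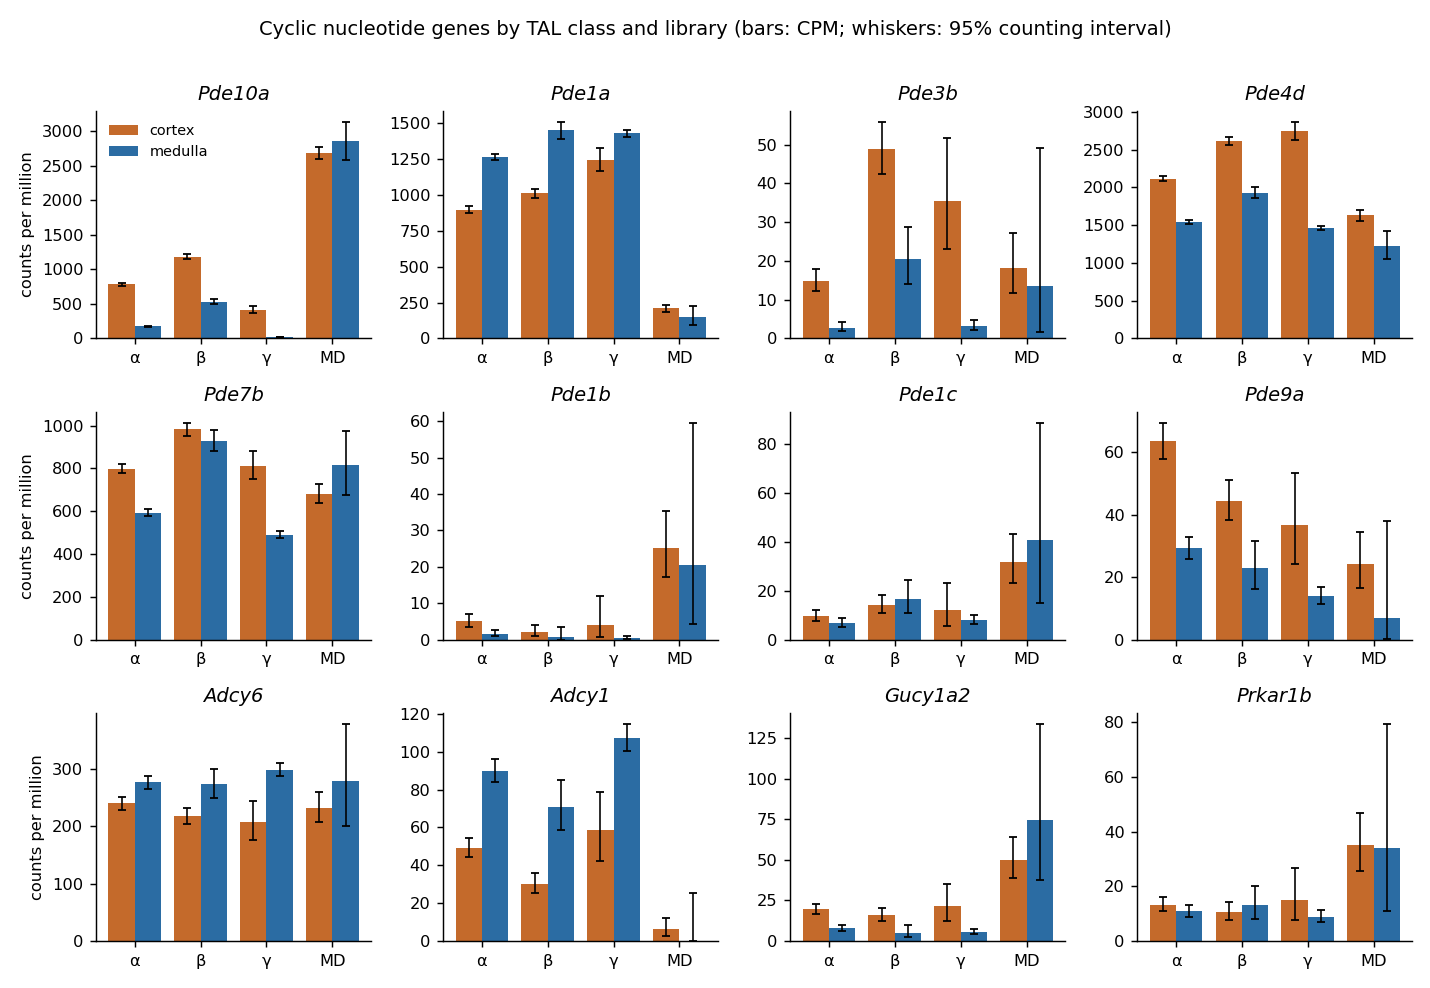
Level of 12 members in each TAL class, with bars for CPM (linear axes from 0, each panel with its own scale) and whiskers for 95% counting intervals, cortex in orange and medulla in blue. Pde10a stands at 2687 and 2855 CPM in the MD class, above all other classes, while Pde1a is at 208 and 150 CPM there, below them.

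Several PDEs differed between the MD and the α class. Pde10a, a PDE of both nucleotides, was several-fold higher in MD in each library, Pde1a was several-fold lower, and the smaller members Pde1b, Pde1c, Gucy1a2 and Prkar1b were higher. Of 35 members with at least 20 counts over the 2 cortical groups, 7 were at least 2-fold higher in MD than in α and 4 at least 2-fold lower, where 7.87% of all genes were higher and 8.22% lower. In the medulla 6 of 30 were higher and 4 lower, where 16.9% of all genes were higher and 9.89% lower, so the members' shares of 20% and 13.3% were near those of all genes. Median log2 ratios were 0.02 for the members and 0.04 for all genes in the cortex. In the medulla they were 0.53 and 0.37, with 4 members and 2204 genes at 0 counts in the 73 MD barcodes and set to 3 counts, which raises both. Since the MD and β comparisons with α use the same α barcodes, their values are given side by side and not as separate support.

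Pde10a was at 786, 1185, 417 and 2687 CPM in cortical α, β, γ and MD. In the medulla it was at 176, 532, 23.7 and 2855 CPM. MD was highest and γ lowest in each library, and the counting intervals of neighbouring classes did not overlap. The ratio of MD to α was 3.42 (3.28 to 3.56) in the cortex and 16.2 (14.5 to 18.1) in the medulla, and that of MD to β in the cortex was 2.27 (2.17 to 2.37). Levels of the MD class itself were alike in both libraries, the larger ratio in the medulla coming with a lower level in α. Leaving out barcodes with 3 or more counts of other-cell markers gave 1.94 for MD over β in the cortex. That filter took Tmem72 as an other-cell marker and kept 498 of 1326 cortical β and 443 of 594 cortical MD barcodes. Without Tmem72 it kept 987 and 545, and the ratio stayed past 2-fold.

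A count of Pde10a was found in 89.4% (86.6 to 91.8, exact Clopper-Pearson interval) of cortical MD barcodes and 86.3% (76.2 to 93.2) of medullary ones. In α the shares were 52.2% and 13.8%, in β 69.2% and 31.7%, and in γ 37.1% and 2.94%. A reference for free RNA, taken from barcodes rich in proximal tubule markers whose Slc12a1 counts did not exceed 2, had 16.5% in the cortex and 1.10% in the medulla at median depths of 3436 and 4607 counts. The medullary γ share lay inside the interval of that reference (0.03 to 5.97), but γ was shallower, at a median of 2388 counts. At 1000 counts a barcode the shares were 1.53% in medullary γ and 0% in the reference, whose 91 barcodes are too few to tell these shares apart. By level, medullary γ was at 23.7 CPM. Medullary proximal tubule barcodes outside the classes were at 4.24 CPM (0.513 to 15.3), and medullary barcodes not called as nuclei were at 152 CPM. Thinned to 1000 counts a barcode, the shares were 79.6% in cortical MD and 38.2% in cortical α, and 78.1% and 8.96% in the medulla. In MD the median barcode held 5 counts of Pde10a in each library, against 1 in cortical α and 0 in medullary α, and the 95th percentile was 17 in cortical MD and 14.4 in medullary MD. In medullary α, where most barcodes had none, 107 of 3633 barcodes still held 5 or more.

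The MD threshold of 3 marker counts did not mark a jump in Pde10a. In the cortex its level was 882 CPM at 0 counts of Nos1 and Pappa2, 1073 at 1, 1230 at 2, 1603 at 3, 1990 at 4 to 5, 2696 at 6 to 9 and 3757 at 10 or more. In the medulla the 7412 barcodes with 0 marker counts were at 136 CPM and the 25 with 10 or more at 3400 CPM, and the 10 barcodes just outside the threshold, with 2 counts, were already at 1693 CPM against 1184 CPM for the 10 with 3. Pde1a followed the opposite course in the cortex, at 988 CPM with 0 marker counts, 666 with 1, 282 with 2 and 206 with 3. Barcodes with 2 marker counts, which the rule sends to the other classes, thus had Pde10a and Pde1a levels close to those at 3.

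**Figure D2:**
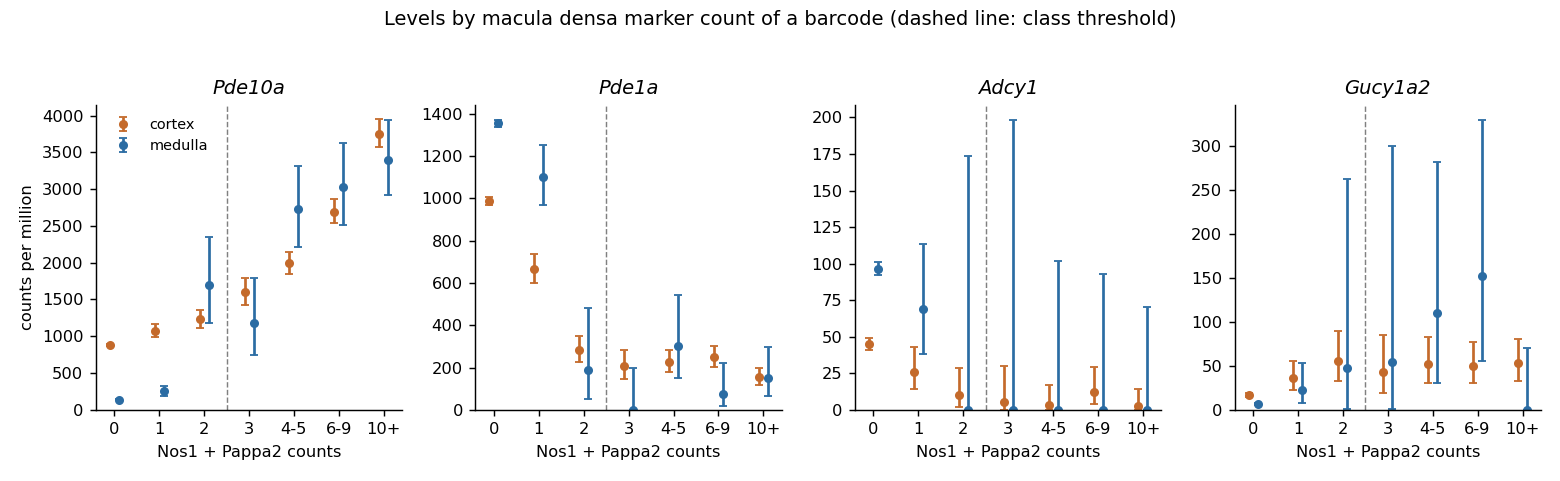
Level of Pde10a, Pde1a, Adcy1 and Gucy1a2 (CPM, linear axes from 0) against the number of Nos1 and Pappa2 counts of a barcode, all TAL barcodes of a bin summed, with 95% counting intervals and a dashed line at the class threshold. Pde10a climbs from 882 to 3757 CPM in the cortex and Pde1a goes from 988 to 156 CPM.

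Pde1a, a calcium- and calmodulin-activated PDE, was at 898, 1011, 1243 and 208 CPM in cortical α, β, γ and MD, and at 1264, 1451, 1429 and 150 CPM in the medulla. MD was the low class in each library, and α, β and γ lay within 1.5-fold of each other. The ratio of MD to α was 0.232 (0.205 to 0.262) in the cortex and 0.118 (0.0741 to 0.179) in the medulla, and that of MD to β in the cortex was 0.206. A count was present in 21.9% of MD barcodes in each library, against 72.8% of cortical and 83.3% of medullary α barcodes. The proximal tubule reference, which was deeper, had 29.4% and 16.5%. At 1000 counts a barcode the shares were 11.8% in cortical MD and 12.9% in its reference, and 12.3% and 7.69% in the medulla. Cortical barcodes not called as nuclei held Pde1a at 705 CPM, so a background level was not settled. The other PDE1 genes stood on the opposite side. Pde1b was at 5.05, 2.12, 4.08 and 25.1 CPM in cortical α, β, γ and MD, with ratios of 4.97 (3.02 to 8.14) to α and 11.8 (5.54 to 28.1) to β, and at 1.67, 0.622, 0.362 and 20.4 CPM in the medulla, where MD had 3 counts. Its gene overlaps Ppp1r1a on the other strand, and whether reads were counted by strand is not given in the sources used here. Pde1c was at 9.70, 14.4, 12.2 and 31.9 CPM in the cortex and 6.92, 16.8, 8.07 and 40.8 CPM in the medulla, with MD over α at 3.29 (2.20 to 4.88) and 5.89 (2.08 to 13.6). Within the PDE1 family Pde1a was thus lowest and Pde1b and Pde1c highest in MD, in each library.

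As a share of all PDE counts, Pde10a made up 43.0% in cortical MD and 45.7% in medullary MD, against 13.6% and 3.78% in α, 16.8% and 8.84% in β, and 6.53% and 0.529% in γ. Pde1a made up 3.34% and 2.39% in MD and between 14.3% and 31.8% in the other classes. These shares are not corrected for gene length, so they compare classes for a gene and not genes with each other. The PDE genes together came to 6248 CPM in cortical MD, within the span of 5800 to 7062 CPM of the other cortical classes, and to 6255 CPM in medullary MD, above the 4491 to 6016 CPM of the other medullary classes.

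**Figure D3:**
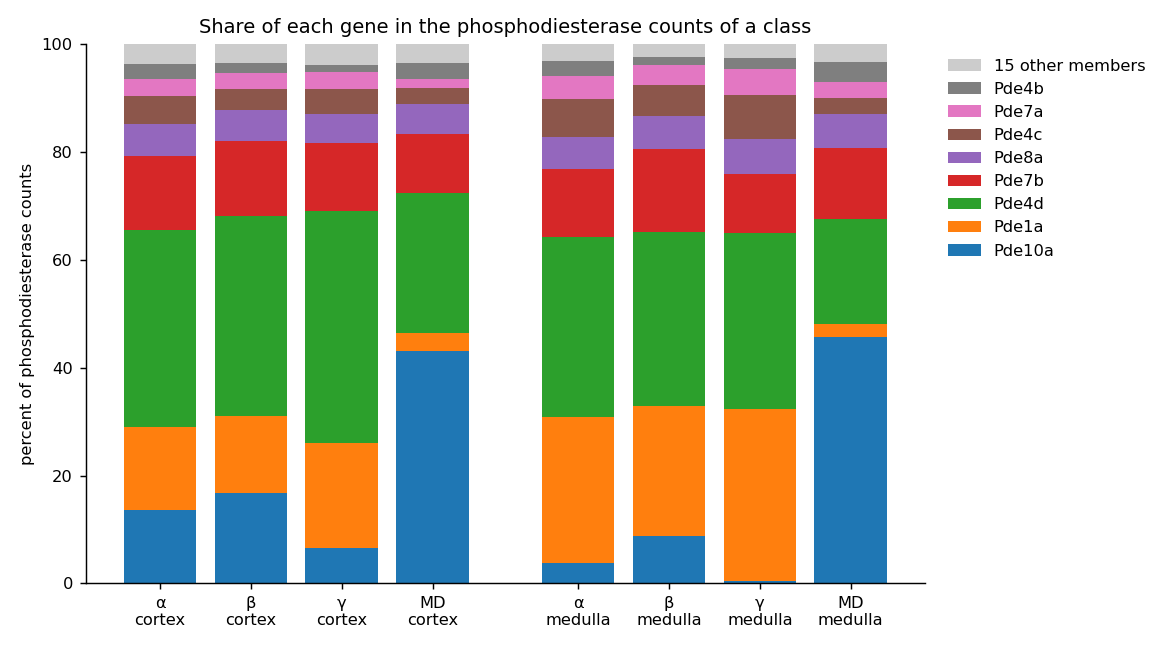
Share of each PDE gene in the PDE counts of a TAL class and library, as stacked percentages from 0 to 100, with 15 members of small share pooled in grey. In the MD class Pde10a (blue) takes 43.0% and 45.7% and Pde1a (orange) 3.34% and 2.39%. Shares are not corrected for gene length.

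Among the cyclases, Adcy1, a calmodulin-stimulated adenylyl cyclase, was at 49.0, 30.2, 58.5 and 6.09 CPM in cortical α, β, γ and MD, the last from 8 counts, and at 89.9, 70.9 and 107 CPM in medullary α, β and γ. Medullary MD had 0 counts, with a counting interval up to 25.1 CPM, and was set to 3 counts (20.4 CPM) for the ratio. The MD to α ratio of Adcy1 was 0.124 (0.0532 to 0.247) in the cortex and, at those 3 counts, 0.227 in the medulla. Adcy2 was at 5.84, 4.72, 5.44 and 15.2 CPM in the cortex, 2.60 times (1.45 to 4.51) as high in MD as in α, and had 1 count in medullary MD. Gucy1a2, an α subunit of the soluble guanylyl cyclase that nitric oxide activates, was at 19.4, 16.0, 21.8 and 50.2 CPM in the cortex and 8.04, 4.98, 5.66 and 74.8 CPM in the medulla. Its MD to α ratios were 2.59 (1.91 to 3.48) and 9.30 (4.45 to 17.7), the medullary value from 11 counts in MD. The β subunit Gucy1b1, its partner in the working enzyme, had 1 count in cortical MD and 0 in medullary MD and at most 6 in any TAL class, so its level there was not measurable at this depth.

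Of the kinases, Prkar1b, a PKA regulatory subunit, was at 13.3, 10.6, 15.0 and 35.0 CPM in cortical α, β, γ and MD and at 10.8, 13.1, 8.92 and 34.0 CPM in the medulla. MD over α was 2.63 (1.82 to 3.77) in the cortex and 3.14 (0.997 to 7.58) in the medulla, the latter from 5 counts. It made up 14.4% and 12.5% of PKA subunit counts in MD and at most 6.67% in other classes, and its gene overlaps Dnaaf5 on the other strand. Pde9a, a cyclic GMP PDE, was at 63.5, 44.3, 36.7 and 24.3 CPM in the cortex and 29.2, 23.0, 14.0 and 6.80 CPM in the medulla, lowest in MD, with ratios to α of 0.383 (0.259 to 0.549) and, from 1 count in MD, 0.232 (0.00586 to 1.31), which stood at 0.884 without barcodes holding 3 or more other-cell counts. The remaining calls rested on few counts. Pde2a in cortical MD had 6 counts (2.02, 0.652 to 5.37) and turned to 0.760 after thinning, Pde6a had 4 (0.440, 0.116 to 1.20), and in medullary MD Pde11a (3.48, 0.406 to 13.5) and Pde3b (4.87, 0.559 to 19.5) had 2 each and Prkg1 had 1 (0.465, 0.0117 to 2.64). All of these intervals include 1, and each of these calls except that of Pde11a was lost under 1 or more alternatives.

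**Figure D4:**
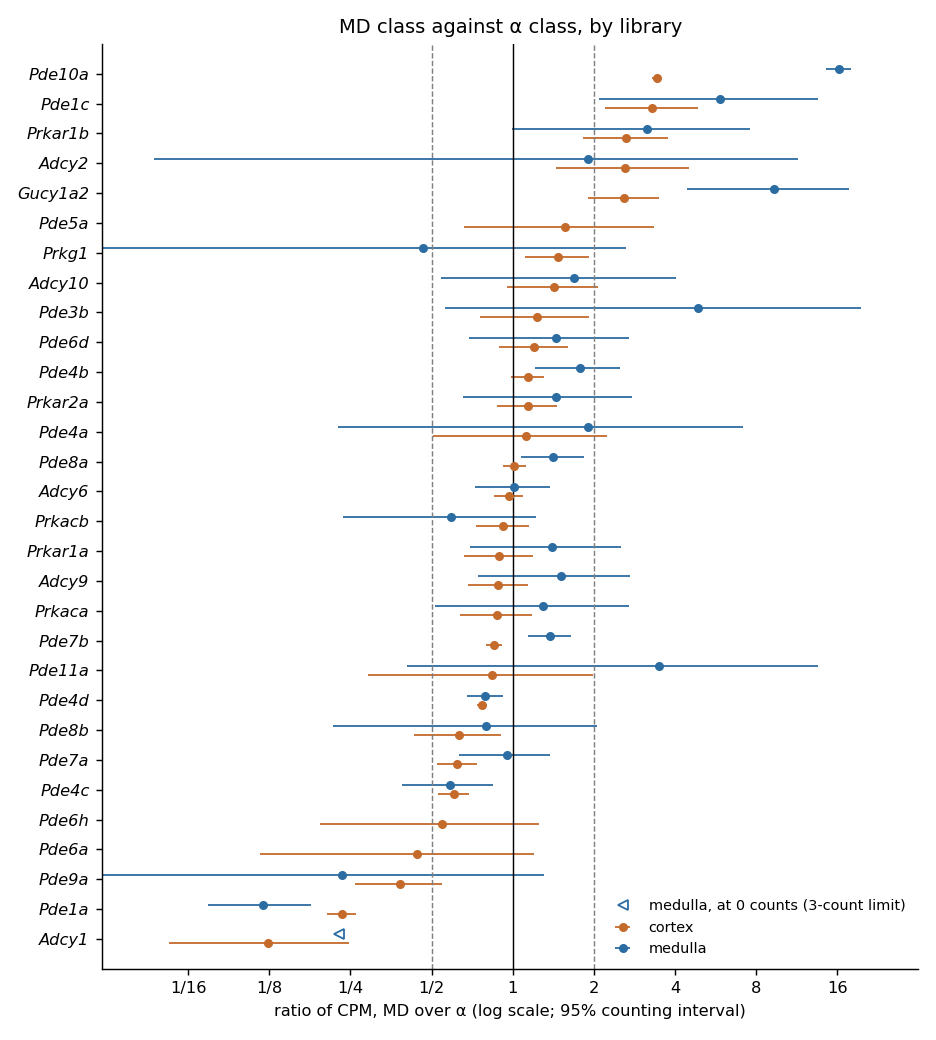
Ratio of CPM in the MD class to the α class for the 30 members that passed the minimum in each library, on a log axis with lines at 1, 1/2 and 2, points with 95% counting intervals that are cut at the edge of the axis, and an open arrow for a class at 0 counts placed at its 3-count limit where that limit is below 1. Pde10a lies farthest to the right at 3.42 and 16.2, and Adcy1 and Pde1a farthest to the left.

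Against cortical β, 6 of 34 members were at least 2-fold higher in MD and 6 at least 2-fold lower, where 7.95% of all genes were higher and 9.31% lower, with medians of -0.17 for the members and 0.03 for all genes. The higher members were Pde1b, Prkar1b, Adcy2 (3.23), Gucy1a2 (3.13), Pde10a and Pde1c (2.22, and 1.75 under its lowest alternative). The lower ones were Adcy1 (0.202, 0.0852 to 0.409), Pde1a, Pde3b (0.374, 0.234 to 0.572), and, with few counts and intervals that include 1, Gucy1a1 (0.372), Pde6a (0.391) and Pde11a (0.484). With classes set by claudins and Kcnj10, Pde6a stood at 1.07.

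The β class differed from the α class in few members, led by Pde3b. In the cortex 3 of 36 members were at least 2-fold higher in β and 2 at least 2-fold lower, where 3.1% of all genes were higher and 2.81% lower, and in the medulla 3 of 32 were higher and 0 lower, where 3.51% and 5.01% of all genes were. Median log2 ratios of the members were 0.08 in the cortex and 0.01 in the medulla, beside 0.01 and -0.02 over all genes. Pde3b, a cyclic AMP PDE that cyclic GMP inhibits, was at 14.9, 48.8, 35.4 and 18.3 CPM in cortical α, β, γ and MD and at 2.79, 20.5, 3.25 and 13.6 CPM in the medulla, the last from 2 counts. It was highest in β in each library. Its β to α ratio was 3.28 (2.59 to 4.17) in the cortex and 7.36 (4.24 to 12.9) in the medulla, and over all alternatives it ran from 2.93 to 3.79 and from 4.73 to 8.82. With the Tmem52b count of a barcode Pde3b went from 13.1 CPM at 0 counts to 54.1 CPM at 4 or more in the cortex, and from 2.93 to 28.4 CPM in the medulla. Barcodes with markers of the distal convoluted tubule and under 10 Slc12a1 counts had Pde3b at 155 CPM, and Slc12a3 was higher in β than in α, as given above.

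Pde10a was 1.51 times (1.45 to 1.57) as high in β as in α in the cortex and 3.02 times (2.78 to 3.28) in the medulla, where it went from 101 CPM in barcodes with 0 counts of Tmem52b to 712 CPM in those with 4 or more. Pde7b, a cyclic AMP PDE, had ratios of 1.23 (1.18 to 1.28) and 1.57 (1.48 to 1.66), and Pde4d of 1.24 and 1.25, all short of 2-fold. Adcy1 was lower in β, at 0.616 of α in the cortex and 0.789 in the medulla. The other members past 2-fold were less steady. Pde3a in the cortex, at 16.0 CPM in β against 7.44 in α (2.16, 1.49 to 3.13), stood at 0.780 once barcodes with 3 or more counts of other-cell markers (Tmem72 not counted) were left out, so its direction turned. Pde2a (2.19, from 21 and 17 counts) stood at 0.681 after thinning. Pde1b (0.420, from 9 and 38 counts) stood at 3.63 with classes set by claudins and Kcnj10, Adcy8 (0.418) had 4 counts in β, and Pde1c in the medulla (2.43, 1.48 to 3.87) stood at 0.484 without the barcodes that held 3 or more other-cell counts.

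The γ class of the medulla differed from the α class mainly in having less Pde10a. None of 35 members was at least 2-fold higher and 5 were at least 2-fold lower, where 1.51% of all genes were higher and 3.11% lower, with medians of -0.07 for the members and 0.00 for all genes. Pde10a was at 23.7 CPM in γ against 176 in α, a ratio of 0.135 (0.116 to 0.156), and at 0.0446 of its level in medullary β. It went from 196 CPM in α and γ barcodes with 0 counts of Tmem207 and Gpc5 to 92.7 at 1, 37.4 at 2, 26.8 at 3 and 20.8 at 4 or more. The 707 barcodes just below the threshold thus lay between the classes. In the cortex, where γ held 232 barcodes, the ratio was 0.531 (0.472 to 0.596). The paper counts Pde10a among its cortex-enriched genes and holds TAL-γ cells to be likely restricted to the inner stripe of the outer medulla. The medulla library pooled all tissue below the superficial strip, with no measure of depth for its nuclei. Class and depth thus cannot be told apart there, and the part of depth in differences between its classes was not tested. Pde8b, a cyclic AMP PDE of high affinity, was at 34.3 CPM in medullary α, 18.7 in β, 14.3 in γ and 27.2 in MD, with γ over α at 0.418 (0.336 to 0.519), and cortical α, β, γ and MD were at 40.9, 38.0, 51.7 and 25.9 CPM. The cortical γ value came from 38 counts in 12 of 232 barcodes, of which 4 held 5 or more counts, and the share of barcodes with a count was lower in γ than in α in each library, at 5.17% against 9.30% in the cortex and 2.49% against 6.58% in the medulla. Pde9a had a ratio of 0.478 (0.381 to 0.597), which stood at 1.21 with classes set by claudins and Kcnj10. Those classes held 216 medullary γ barcodes in place of 3330. Adcy3 (0.398) and Pde6h (0.440) had 7 and 11 counts in γ. Adcy1 and Adcy10 were somewhat higher in γ, at 1.19 (1.09 to 1.32) and 1.45 (1.19 to 1.77) times α.

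Between the libraries, members that differed were mostly lower in the medulla. In α 11 of 39 members were at least 2-fold lower in the medulla than in the cortex and 0 at least 2-fold higher, where 11% of all genes were lower and 2.06% higher. In β 9 of 32 were lower and 1 higher, where 11.3% and 1.17% of all genes were. Median log2 ratios were -0.32 in α and -0.43 in β for the members, beside -0.10 and -0.09 for all genes. Without barcodes holding 3 or more other-cell counts the lower members in α came to 6, with no such count made over all genes. Proximal tubule markers, as given above, were also several-fold lower in the medulla library.

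Pde10a in α was at 176 CPM in the medulla and 786 in the cortex, a ratio of 0.224 (0.212 to 0.237), and in β at 532 and 1185 CPM, a ratio of 0.449 (0.417 to 0.483). It was at 2855 and 2687 CPM in MD. Pde3b had ratios of 0.188 (0.116 to 0.291) in α and 0.421 (0.282 to 0.609) in β. Prkg1, the cyclic GMP-dependent kinase I, was at 35.2, 67.9, 84.3 and 51.7 CPM in cortical α, β, γ and MD and at 14.6, 9.33, 13.7 and 6.80 CPM in the medulla, with ratios of 0.415 (0.334 to 0.514) in α and 0.137 (0.0759 to 0.230) in β. Proximal tubule barcodes outside the classes held Prkg1 at 127 CPM in the cortex and 14.8 in the medulla, and without barcodes holding any marker of non-proximal other cells the β ratio was 0.523. Pde3a was at 7.44 and 1.34 CPM in cortical and medullary α (0.180, 0.0879 to 0.340) and at 16.0 and 1.24 CPM in β (0.0776, from 2 counts in the medulla), the β ratio standing at 0.837 without barcodes holding any marker of non-proximal other cells. Gucy1a2 had ratios of 0.414 (0.308 to 0.553) and 0.310 (0.129 to 0.647), and Pde9a of 0.461 (0.395 to 0.537) and 0.519. Leaving out barcodes with 3 or more other-cell counts put Gucy1a2 in β at 0.746 and Pde9a in α at 0.552, and leaving out those with any marker of non-proximal other cells put Gucy1a2 in α at 0.516 and Prkg1 in α at 0.665, so these calls were lost.

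In the opposite direction Adcy1 was 1.83 times (1.62 to 2.08) as high in medullary as in cortical α and 2.35 times (1.81 to 3.05) in β, and Pde1a 1.41 times (1.37 to 1.45) and 1.44 times (1.36 to 1.51). Adcy6 was 1.15 and 1.26 times as high. Adcy1 in β stood at 1.87 with its lowest alternative. The other lower members had few counts. In α they were Gucy1a1 (0.140, 4 counts in the medulla), Pde1b (0.332, and 1.02 with classes set by claudins and Kcnj10), Pde6h (0.360), Pde6a (0.420) and Prkar2b (0.453, 7 and 13 counts, and 2.03 without barcodes holding 3 or more other-cell counts). Gucy1a1 in α stood at 0.843 without barcodes holding 3 or more other-cell counts (Tmem72 not counted). With Tmem72 counted, cortical α held 0 counts of Gucy1a1 and medullary α held 1. Pde6a in α stood at 0.886 under its highest alternative, so the calls of Gucy1a1 and Pde6a were lost. In β they were Gucy1a1 (0 counts in the medulla, a ratio of 0.304 with 3 counts set in their place), Adcy2 (0.396, 3 counts), Pde8b (0.492, 0.321 to 0.729, and 0.874 under its highest alternative) and Pde6a (0.480, 6 counts). Pde6a in β stood at 1.99 without barcodes holding 3 or more other-cell counts. Gucy1a1 and Adcy2 in β each stood at 0.815 under their highest alternative.

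**Figure D5:**
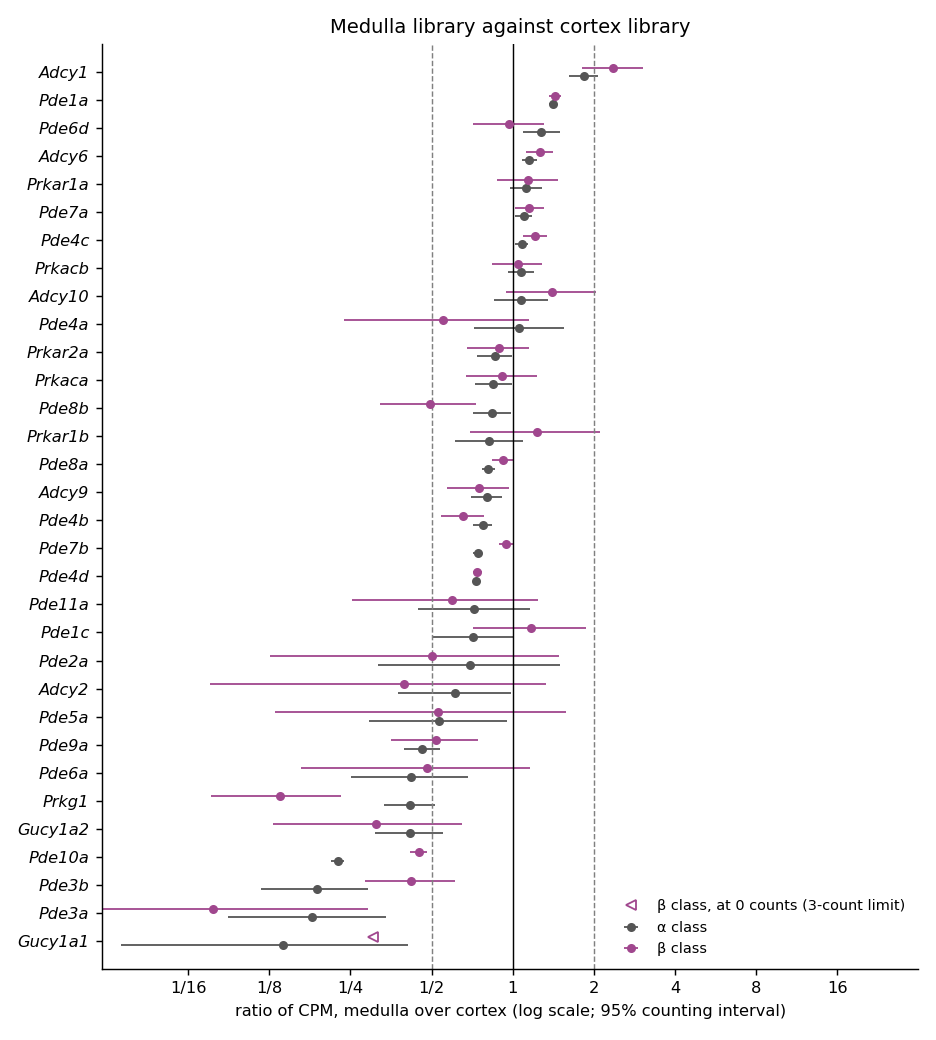
Ratio of CPM in the medulla library to the cortex library for the 32 members that passed the minimum in both the α class (grey) and the β class (purple), on a log axis with lines at 1, 1/2 and 2, points with 95% counting intervals that are cut at the edge of the axis, and an open arrow for a class at 0 counts placed at its 3-count limit. Adcy1 and Pde1a lie to the right of 1 in both classes, and Pde10a lies at 0.224 in α and 0.449 in β.

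Of 55 genes listed around the pathway (receptors, G proteins, PKA anchors and inhibitors, other effectors, transcription factors and calcium sensors) 54 were in the table. In the cortex 5 of the 45 that passed the minimum (11.1%) were at least 2-fold higher in β than in α and 4 (8.89%) lower, where 3.1% and 2.81% of all genes were. In the medulla 2 of 39 (5.13%) were higher and 4 (10.3%) lower, where 3.51% and 5.01% of all genes were. For MD against α in the cortex 4 of 42 (9.52%) were higher and 5 (11.9%) lower, where 7.87% and 8.22% of all genes were. In the medulla 8 of 39 (20.5%) were higher and 7 (17.9%) lower, where 16.9% and 9.89% of all genes were. For γ against α 1 of 44 (2.27%) was higher and 3 (6.82%) lower, where 1.51% and 3.11% of all genes were. The MD shares of higher genes were thus near those of all genes. Nos1 is among the listed genes but defined the MD class. Ptger3, Avpr2, Pth1r and Casr are also listed, and the paper reported them from these same data as differing between TAL types. Part of these shares was thus known beforehand.

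Ptger3, the prostaglandin E2 receptor EP3, which couples to inhibitory G proteins, was at 1228, 67.7, 352 and 456 CPM in cortical α, β, γ and MD and at 1961, 281, 1482 and 476 CPM in the medulla, highest in α in each library. Pth1r, the parathyroid hormone receptor, was at 296, 598, 450 and 186 CPM in the cortex and 81.5, 440, 41.2 and 143 CPM in the medulla, 2.02 and 5.40 times as high in β as in α. Adrb1, the β1-adrenergic receptor, was at 38.4, 11.8, 13.6 and 0.761 CPM in the cortex, the last from 1 count, and at 33.0, 9.95, 8.92 and 0 in the medulla. Calcr, the calcitonin receptor, was at 18.2, 3.77, 4.08 and 72.3 CPM in the cortex and 4.91, 1.24, 0.482 and 74.8 CPM in the medulla, highest in MD in each library, with MD over α at 3.97 (3.02 to 5.20) and 15.2 (7.09 to 30.0). Avpr2, the vasopressin V2 receptor, was at 14.6, 11.3, 8.16 and 3.04 CPM in the cortex and 17.0, 10.6, 19.2 and 0 in the medulla, with 4 counts in cortical MD. Npr2, a natriuretic peptide receptor that is itself a guanylyl cyclase, was at 1.00 CPM in medullary α and 2.29 in γ, on few counts.

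Among G proteins Gnas, the stimulatory subunit, was at 195, 215, 205 and 329 CPM in cortical α, β, γ and MD and at 186, 237, 181 and 333 CPM in the medulla, short of 2-fold throughout. Gnai1, an inhibitory subunit, was at 91.1, 135, 136 and 22.8 CPM in the cortex and 139, 157, 147 and 20.4 CPM in the medulla. MD over α was 0.250 (0.168 to 0.361) and 0.147 (0.0302 to 0.430), the latter from 3 counts. The MD class thus differed from α in Ptger3, Calcr and Gnai1 in the same direction in each library, as it did in Pde10a, Pde1a, Pde1c, Gucy1a2 and Adcy1. Adcy1 had 0 counts in medullary MD. Prkar1b and Pde9a also kept their direction, but with 5 counts and 1 count in medullary MD, and both medullary intervals include 1.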

How the data were processed

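Single-nucleus RNA was sequenced from 2 libraries, cortex and medulla, with the PIPseq T10 3′ kit (v5.0). Per the methods and the submitters' processing notes, the authors used bcl2fastq, aligned reads to GRCm39 with PIPseeker 3.3.0 and analysed the data in Seurat 4.4.0. The deposited filtered matrices hold counts of molecules per gene and barcode, before the authors' own doublet removal, ambient RNA correction and normalization. Whether introns or strand entered the counting is not given in the sources used here. The authors' deposited cluster and embedding tables were not used.

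A barcode needed 500 genes or more and no more than 5% of its counts from mitochondrial genes. Scrublet (scanpy 1.11.5) scores removed 359 cortical barcodes at its own threshold. In the medulla that threshold called 2 of 8120 barcodes (0.0246%) and had not worked, so the top 5% of scores were removed (388 barcodes). Counts were summed over a class and library and divided by the class total (CPM), with exact Poisson intervals for a level, conditional binomial intervals for a ratio and exact Clopper-Pearson intervals for a share, at 95%. Molecules of a nucleus are not replicates, so these intervals cover counting error only and no p-value is given. A difference was counted at a ratio of at least 2 or at most 0.5 for genes with at least 20 counts over both groups, with a class at 0 counts set to 3 counts. The code was tested on simulated counts.

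Named with values were members past that fold in any comparison and the largest of each family. The members, classes and lists were chosen with earlier results of these data known. Alternatives were 11 planned settings and 3 added after seeing the data. The filter at 3 or more other-cell counts, which took Tmem72 as a marker, kept 1143 of 2709 cortical and 1654 of 3633 medullary α barcodes. Without Tmem72 it kept 2265 and 3534. Classes set by claudins and Kcnj10 held 834 α and 909 β barcodes in the cortex. In the medulla they held 2217 α, 735 β and 216 γ barcodes, so values under that setting rest on fewer α and γ barcodes.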

Additional observations from a re-analysis of the deposited data

Results flagged for a closer look

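Pde7b was lower in the MD class than in the α class in the cortex, at a ratio of 0.853, and higher in the medulla, at 1.38, with counting intervals that do not overlap. The difference between the libraries was not tested, since each region is 1 library.

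Barcodes with under 10 Slc12a1 counts, which the comparisons left out (222 in the cortex and 154 in the medulla), held some members at 2-fold or more above every TAL class of the same library. Listed are those with at least 20 counts there and a counting interval clear of that of every TAL class, and no such search was made over all genes. Of these barcodes 118 in the cortex and 101 in the medulla held 3 or more counts of proximal tubule markers. The medullary ones had Pde4d at 5990, Adcy9 at 210 and Pde9a at 80.5 CPM, but Pde3a at 2.12 and Prkg1 at 14.8 CPM. Members above every class by less, or on fewer counts or with overlapping intervals, are not listed. In the medulla Adcy9 was at 192 CPM there against 74.8 in the highest TAL class, Pde3a at 49.2 against 1.69, Pde4d at 5049 against 1930, Pde9a at 69.5 against 29.2 and Prkg1 at 93.3 against 14.6. In the cortex Pde6a was at 26.1 CPM against 7.78.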

How the results depend on the processing

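Of 67 member values past 2-fold, 34 stayed past it in every alternative that gave a value (up to 12 each), among them Pde10a and Pde1a in MD against α in each library, Pde10a in medullary γ and Pde3b in β against α. Scaling by the median of ratios moved all values of MD against α in the medulla by -0.23 on the log2 scale and moved the count of members past 2-fold by less than 1.5 times. The counts of members past the fold (higher and lower together) moved by more than 1.5 times as follows, and the causes were not tested. Shares of all genes were not computed at these settings, so the moves cannot be compared with those of all genes. A fold of 1.5 gave 11 in place of 5 for β against α in the cortex, 10 in place of 3 in the medulla, 18 in place of 11 for MD against α in the cortex, 17 in place of 10 in the medulla and 16 in place of 10 for β between libraries. With no minimum on counts, β against α gave 10 in the cortex and 8 in the medulla. In cortical β against α, leaving out barcodes with 3 or more other-cell counts, with any count of non-proximal markers or with 1 or 2 MD marker counts, or thinning to 1000 counts, gave 3 each. In medullary β against α, keeping doublets, using no barcode filter or leaving out other-cell barcodes without regard to Tmem72 gave 5 each. In γ against α the other-cell filter and the claudin classes gave 3 each in place of 5. In MD against α in the medulla the other-cell filter gave 6. In α between libraries the other-cell filter gave 6 with or without Tmem72 and the non-proximal filter gave 7, in place of 11. In β between libraries stricter thresholds, claudin classes and the non-proximal filter gave 6 each, the other-cell filter 5, the same without Tmem72 4 and thinning 5, in place of 10.

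Values turned direction in 13 cases. In the cortex, β against α turned for Pde1b with claudin classes (3.63), Pde2a with thinning (0.681) and Pde3a with the other-cell filter without Tmem72 (0.780) or the non-proximal filter (0.732), MD against α for Pde2a with thinning (0.760), and MD against β for Pde6a with claudin classes (1.07). In the medulla Pde1c in β against α turned with the other-cell filter (0.484) and Pde9a in γ against α with claudin classes (1.21). Between libraries Prkar2b in α turned with the other-cell filter (2.03), Pde1b in α with claudin classes (1.02), and Pde6a in β with the other-cell filter (1.99), without Tmem72 (1.25) and with claudin classes (1.06). In 16 cases a class fell to 0 counts and no direction could be given. The 73 medullary MD barcodes limit what could be measured there. No paired analysis was possible because each region is a single library.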
